A study of Mus musculus with 16 samples.

Results

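The 10 chemokine genes described here are Ccl2, Ccl3, Ccl4, Ccl5, Ccl6, Ccl12, Ccl24, Cxcl10, Cxcl12 and Cx3cl1, measured in the cerebral cortex of mice 20 h after whole-body gamma irradiation or a sham exposure. They were taken by name, through every probe whose RefSeq accession mapped to one of their symbols, which gave 12 of the 56605 probes on the array and 10 of the 17436 genes tested. Ccl4 and Cxcl12 each had 2 probes and the other 8 genes had 1. Each gene with several probes is given by its brightest one, and the other probe is set beside it. All 10 genes passed the filter on dim probes, and the main probe of 9 of them was well above background on all 16 arrays. The Ccl4 probe was well above background on 14 arrays, and the other 2 were sham arrays of the labelled knockout.

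RNA came from 16 male mice, 1 array per mouse, in 4 groups of 4. Wild-type littermates and Neil1-/- mice, both backcrossed to C57BL/6, received 6 Gy at 0.74 Gy/min or no radiation. The age range, 28 to 42 weeks, stands in the labels of all 16 mice. According to the treatment protocol, BrdU, which labels newly made DNA, was given at 100 mg/kg before the exposure and a second time 2 h after it. NEIL1 is an enzyme of base excision repair, and the mutation is germline and not limited to brain cells. The irradiated field was the whole body, so blood and bone marrow were exposed along with the brain.

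Chemokines are small secreted proteins that bind receptors on leukocytes and direct their movement. In the brain, microglia and macrophages are known sources of CCL3 and CCL4, CCL2 and CCL12 draw CCR2-bearing monocytes, and CXCL10 is made by astrocytes and other cells in response to interferons. Endothelial and mural cells make CXCL12, and neurons make CX3CL1, which binds CX3CR1 on microglia.

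Every level below is the log2 of the array's processed signal minus that array's 75th percentile, so a level of 0 equals the 75th percentile and dim genes have negative values. Levels of different genes come from different probes and are not compared with each other. Differences were tested with limma over 17436 genes in 1 fit of 4 group means to 16 arrays. A gene was called when its two-sided Benjamini-Hochberg adjusted p was under 0.05. Among the member genes only Ccl24 was called, as lower, after irradiation in the labelled knockout. Ccl2, Ccl12, Ccl3 and Ccl4 had higher mean levels after irradiation in both genotypes, and none of them was called in the fit as reported.

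The arrays were not equally bright. The 75th percentile of the processed signal averaged 2415 ± 274 (SD, n = 4) in the wild-type sham group and 2301 ± 235 after irradiation, and in the labelled knockout 1778 ± 343 and 1333 ± 301. The share of spots well above background ran from 62.4% to 72.4% per array. Correlation between arrays ran from 0.97 to 0.99 across all 56605 probes, which are not independent replicates. Wild type was on slide 1 and labelled knockout on slide 2, each scanned as a set, and sham and irradiated arrays lay in different rows of both slides. Genotype and slide therefore cannot be told apart, nor can treatment and slide row. Neil1 itself was 2.42-fold brighter in labelled-knockout than in wild-type sham arrays and 2.62-fold brighter after irradiation (exact permutation test, two-sided, p = 0.0286 for each, the smallest that 4 against 4 allows). Whether this probe lies inside or outside the deleted part is not known here, so its level is no check of the deletion, and the group is called the labelled knockout throughout. Of 15 listed markers of cortical neurons 14 were tested, and their summed level, in multiples of the 75th percentile, ran from 228 to 322 per array.

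The promoter of Cxcl10 is printed because this gene varied most between mice of 1 group and because the window carries sequence types known for the signals that induce it. RefSeq (assembly GRCm38.p6) gave promoter windows, 250 bases before to 50 after the gene start, for 6 of the 10 members: Ccl12, Ccl3, Ccl6, Cx3cl1, Cxcl10 and Cxcl12. The Cxcl10 window lies at chr5:92348840-92349139 on the minus strand. Capitals mark an interferon-response-type match and 2 NF-kappaB-type matches.
Cxcl10: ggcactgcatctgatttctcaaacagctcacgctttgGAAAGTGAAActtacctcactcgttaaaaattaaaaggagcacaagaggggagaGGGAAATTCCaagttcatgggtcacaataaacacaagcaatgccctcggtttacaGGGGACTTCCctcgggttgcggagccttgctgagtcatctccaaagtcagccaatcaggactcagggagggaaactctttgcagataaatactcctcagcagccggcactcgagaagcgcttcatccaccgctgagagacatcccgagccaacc

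The interferon-response-type motif was searched as GAAA and GAAA with 2 bases of any kind between them, and the NF-kappaB-type motif as GGG and TTCC with 3 bases between them, on both strands. The match GAAAGTGAAA starts at base -213 from the gene start, and the matches GGGAAATTCC and GGGGACTTCC start at bases -159 and -104. None of the matches overlaps another. Among 32851 promoter windows of the same length, 3.44% held the first motif and 5.56% the second. Neither set of letters occurred in the windows of the other 5 members. TATAAA, found in 13.6% of all windows, occurred in the windows of Ccl12, starting at base -31, and Cx3cl1, starting at base -6. These are letter matches and do not show binding.

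The first question of the design is what irradiation did to these genes in wild-type cortex. No member was called there, against 0.0746% of all genes called in either direction. The mean level was higher in 6 members and lower in 4, beside 54.5% of all genes higher. The median log2 change was 0.20, beside a median of 0.01 over all genes. Ccl2, Ccl12, Ccl3 and Ccl4 had unadjusted p-values under 0.05 in the upward direction (0.746% of all genes) and Ccl6 in the downward direction (1.23% of all genes). In the labelled knockout 1 of 10 members was called, beside 0.12% of all genes. Unadjusted p-values under 0.05 were found for 2 members upward (2.49% of all genes) and 1 downward (2.14%). The mean level was higher there in 7 members and lower in 3, beside 49.8% of all genes higher. The median log2 change there was 0.28, beside -0.001 over all genes. Averaged over genotypes, 1 member was called (0.304% of all genes), and 4 members upward (2.46% of all genes) and 2 downward (2.53%) had an unadjusted p under 0.05. The direction was the same in both genotypes for 9 of 10 members, Ccl5 being the exception, and the share over all genes was not computed. Some of these changes were near 0, such as 0.07 and 0.05 for Cx3cl1 in wild type and labelled knockout. Cxcl12 had -0.40 in wild type and -0.02 in the labelled knockout. The latter sign turned under 7 of the 32 alternatives described at the end. In bulk tissue, fewer cells of a type and less RNA per cell cannot be told apart, for any member.

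**Figure D1:**
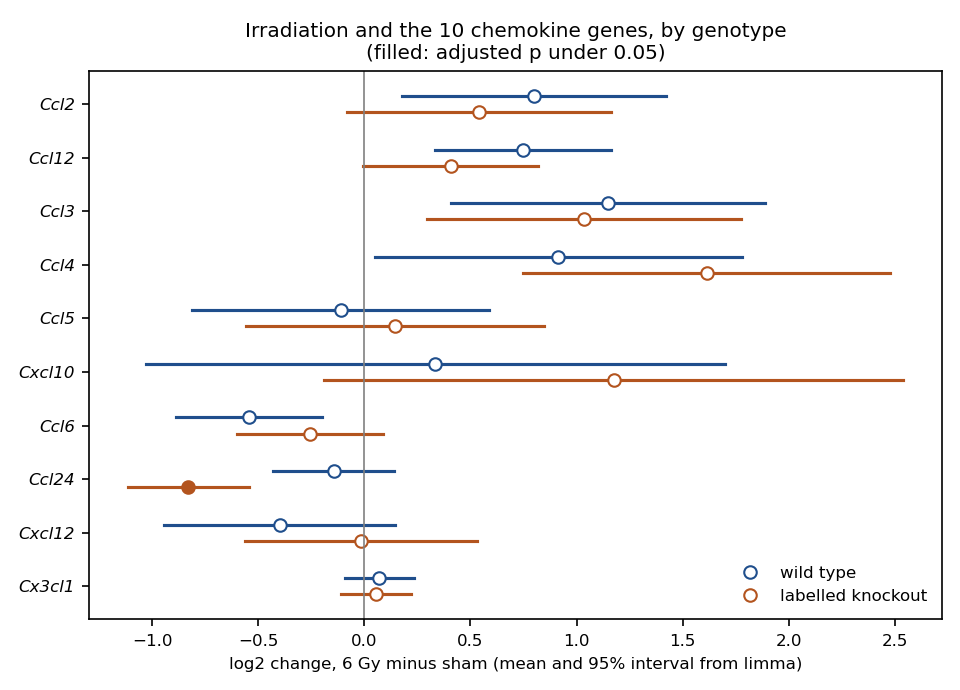
Log2 change after 6 Gy (irradiated minus sham, x axis) for the 10 chemokine genes in wild type (blue) and labelled knockout (orange). Points are limma estimates from 4 arrays per group, bars are 95% intervals, and the only filled point, with an adjusted p under 0.05, is Ccl24 in the labelled knockout at -0.83.

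Ccl3 and Ccl4 encode the macrophage inflammatory proteins 1-alpha and 1-beta. Ccl3 stood at -6.05, -5.43, -4.51 and -4.86 in wild-type sham and at -3.63, -4.34, -3.73 and -4.56 after irradiation. Labelled-knockout levels were -5.00, -5.82, -4.80 and -4.99 in sham and -3.44, -4.33, -4.59 and -4.11 after irradiation. All 4 irradiated labelled-knockout arrays lay above all 4 of their sham arrays, while in wild type 1 irradiated array lay just below the highest sham array. Ccl3 and Ccl4 were the 2 members without overlap in the upward direction in the labelled knockout, as were 1.16% of all genes. The log2 change of Ccl3 was 1.15 ± 0.35 (SE), or 2.21-fold, in wild type and 1.04 ± 0.35, or 2.05-fold, in the labelled knockout. Neither passed the limma test after Benjamini-Hochberg adjustment (adjusted p = 1 and 0.769), nor did the average of both (1.09 ± 0.24, adjusted p = 0.128). With normexp background correction the average of Ccl3 was called, at 0.74 ± 0.14 (adjusted p = 0.0335), the 1 alternative of 31 that called it. The share of all genes called in that fit is not given here.

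Ccl4 read -6.49, -5.78, -5.52 and -6.31 in wild-type sham and -5.15, -4.55, -5.12 and -5.61 after irradiation. Its labelled-knockout levels were -5.90, -7.27, -7.05 and -5.51 in sham and -3.91, -5.28, -5.20 and -4.88 after irradiation. The sham values -7.27 and -7.05 are those that were not well above background, so fold changes against that group are inexact. Groups of the labelled knockout did not overlap, and those of wild type overlapped by 1 array. The log2 change was 0.91 ± 0.40 (SE) in wild type and 1.61 ± 0.40, or 3.06-fold, in the labelled knockout, with limma adjusted p-values of 1 and 0.351. The average over genotypes was 1.26 ± 0.29 with an adjusted p of 0.129. The dimmer Ccl4 probe gave changes of 0.91 ± 0.28 and 1.55 ± 0.28. Its average, 1.23 ± 0.20, had a limma adjusted p of 0.0199 when every kept probe was tested as its own feature, while the brighter probe had 0.22 in that fit. The 2 probes thus gave the same size of change and stood on different sides of the threshold. The average of Ccl4 was called under 3 of 30 alternatives: with normexp at 0.60 ± 0.10 (adjusted p = 0.0196), with array weights at 1.51 ± 0.26 (adjusted p = 0.016), both for the brighter probe, and as the mean of both Ccl4 probes at 1.25 ± 0.23 (adjusted p = 0.0349). The shares of all genes called in these fits are not given here. On labelled-knockout sham arrays the dimmer probe was well above background on 1 of 4.

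Ccl2 and Ccl12 encode ligands of CCR2, the receptor through which inflammatory monocytes are recruited. Ccl2 stood at -5.37, -4.81, -5.18 and -4.94 in wild-type sham and at -4.76, -3.61, -3.83 and -4.90 after irradiation. The labelled-knockout arrays stood at -4.91, -5.67, -5.42 and -5.50 in sham and at -4.21, -4.99, -5.21 and -4.93 after irradiation. The irradiated wild-type arrays fell into 2 high and 2 near the sham level, and in the labelled knockout 1 irradiated array was well above the rest. Both pairs of groups overlapped. The log2 change was 0.80 ± 0.29 (SE) in wild type and 0.54 ± 0.29 in the labelled knockout, with limma adjusted p-values of 1 and 0.999. The average was 0.67 ± 0.21 with an adjusted p of 0.495.

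Ccl12 had sham levels in wild type of -3.76, -3.44, -3.76 and -3.76, and irradiated levels of -3.12, -2.85, -2.87 and -2.91. It was the only member whose wild-type groups did not overlap in the upward direction, as were 0.866% of all genes. In the labelled knockout its levels were -3.22, -3.70, -3.63 and -4.03 in sham and -2.67, -3.55, -3.20 and -3.53 after irradiation, and the groups overlapped. The log2 change was 0.75 ± 0.19 (SE), or 1.68-fold, in wild type and 0.41 ± 0.19 in the labelled knockout. Neither was called by limma (adjusted p = 0.628 and 0.999), nor was the average (0.58 ± 0.14, adjusted p = 0.163). The average of Ccl12 was called under 3 of 31 alternatives: normexp (0.50 ± 0.08, adjusted p = 0.0156), array weights (0.60 ± 0.12, adjusted p = 0.0363) and the brightness covariate (0.77 ± 0.13, adjusted p = 0.0241). The shares of all genes called in these fits are not given here. The difference between the genotypes was -0.34 ± 0.27, and its 95% interval ran from -0.92 to 0.24.

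Cxcl10 and Ccl5 encode chemokines that draw activated T cells, CXCL10 through the receptor CXCR3. Cxcl10 stood at -4.06, -3.57, -3.11 and -4.08 in wild-type sham and at -4.54, -2.02, -3.38 and -3.54 after irradiation. In labelled-knockout arrays it stood at -3.57, -5.17, -4.83 and -4.84 in sham and at -1.53, -4.58, -4.51 and -3.08 after irradiation. The highest of all 16 arrays was the first irradiated labelled-knockout replicate, and the next highest was the second irradiated wild-type replicate. The fourth irradiated labelled-knockout replicate was above all 4 of its sham arrays, and the other irradiated arrays lay within or below the range of their own sham arrays. Within the irradiated labelled knockout the highest and lowest mouse differed 8.27-fold, and within irradiated wild type 5.76-fold. The same span was 3.04-fold in labelled-knockout sham and 1.96-fold in wild-type sham. The log2 change was 0.33 ± 0.64 (SE) in wild type and 1.18 ± 0.64 in the labelled knockout, with a 95% interval from -0.19 to 2.54 in the second. Neither was called (limma adjusted p = 1 and 0.999).

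Ccl5 stood at -4.61, -4.78, -4.72 and -4.22 in wild-type sham and at -5.27, -5.39, -4.04 and -4.07 after irradiation. The irradiated arrays split into 2 below and 2 above all sham arrays. In the labelled knockout the 4 irradiated levels, from -5.35 to -4.46, lay within the range of the sham levels, from -5.35 to -4.26. The log2 changes were -0.11 ± 0.33 (SE) and 0.15 ± 0.33, with 95% intervals from -0.81 to 0.59 and from -0.56 to 0.85.

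**Figure D2:**
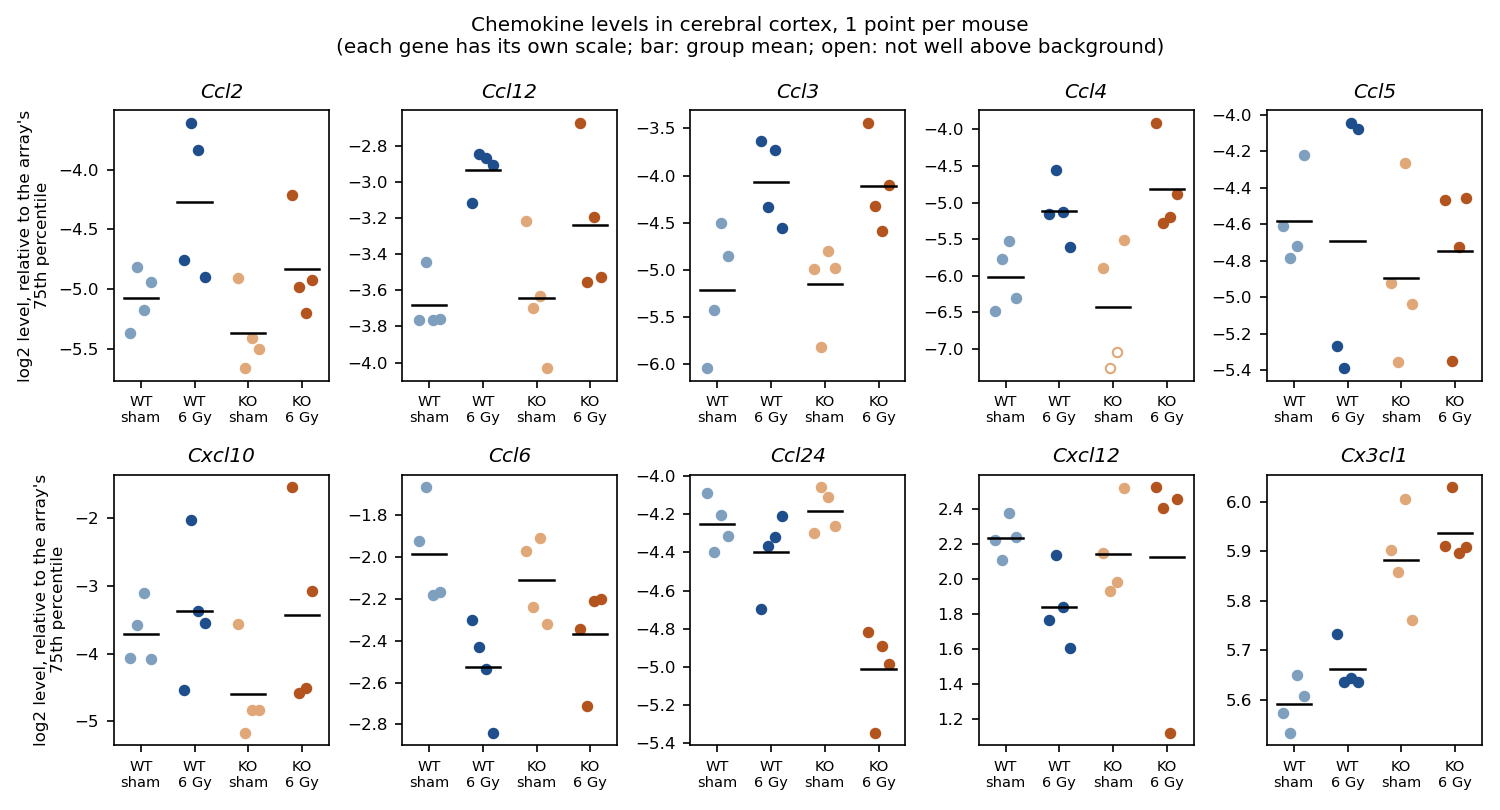
Log2 level (y axis, relative to the array's 75th percentile, each gene on its own scale) of the 10 chemokine genes in each of 16 mice, by genotype (WT wild type, KO labelled knockout) and treatment. Bars are group means, and the 2 open Ccl4 points were not well above background. Ccl24 separates the irradiated labelled knockout, from -5.35 to -4.82, from the other 12 arrays.

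Individual irradiated mice differed in how many of these genes were high. Set against the mean of their own genotype's sham arrays, all 8 irradiated mice were above 0 for Ccl2, Ccl12, Ccl3 and Ccl4. The same held for Cx3cl1, by only 0.014 to 0.15, and the share of all genes with 8 of 8 was not computed. The first irradiated labelled-knockout mouse exceeded its sham mean by 1.16 for Ccl2, 0.97 for Ccl12, 1.71 for Ccl3, 2.53 for Ccl4 and 3.07 for Cxcl10, the highest of its group for each of the 5 genes. The first labelled-knockout sham mouse was likewise the highest of its group for Ccl2, Ccl12 and Cxcl10, but not for Ccl3 or Ccl4. These irradiated and sham arrays were the brightest of their groups, with 75th percentiles of 1766 and 2240, and both lay in slide column 1. The part of brightness or slide column in this pattern was not tested. In wild type no mouse was highest throughout: the second led for Ccl2, Ccl12, Ccl4 and Cxcl10, with 1.47, 0.83, 1.47 and 1.69, and the first led for Ccl3, with 1.58. The first wild-type mouse was also below its sham mean for Cxcl10, at -0.84. Pearson's r over the 16 arrays, given as a description of points that share array brightness and treatment, was 0.79 between Ccl2 and Ccl12, 0.78 between Ccl3 and Ccl4, 0.76 between Ccl2 and Cxcl10 and 0.72 between Ccl4 and Cxcl10. With each group's mean removed the same 4 values were 0.61, 0.55, 0.77 and 0.70.

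**Figure D3:**
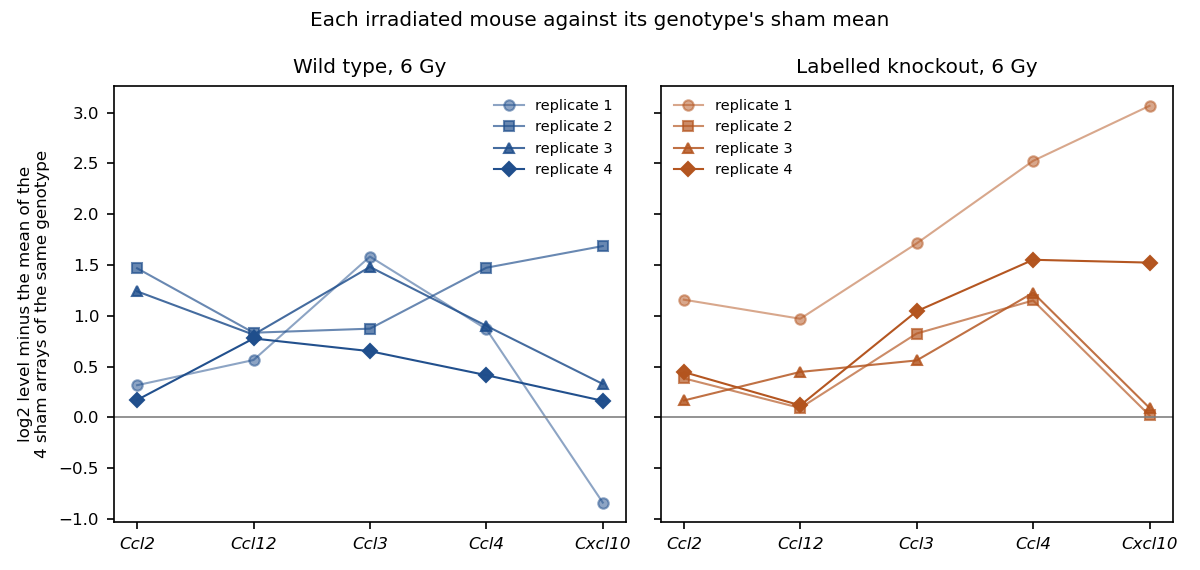
Log2 level of 5 chemokines in each irradiated mouse minus the mean of the 4 sham arrays of the same genotype (y axis), 1 line per mouse, wild type on the left and labelled knockout on the right. The first labelled-knockout replicate is the highest of its group for all 5 genes, and only the first wild-type replicate falls below 0, for Cxcl10.

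Ccl6 and Ccl24 are chemokines of macrophages. CCL6 is made by microglia and other myeloid cells, and CCL24, or eotaxin-2, binds CCR3 on eosinophils. Ccl6 stood at -1.92, -1.66, -2.18 and -2.17 in wild-type sham and at -2.30, -2.43, -2.54 and -2.84 after irradiation. All 4 irradiated wild-type arrays were below all 4 sham arrays, as were those of 1.1% of all genes. The labelled-knockout levels, -1.97, -2.24, -1.91 and -2.32 in sham and -2.34, -2.71, -2.21 and -2.20 after irradiation, overlapped. The log2 change was -0.54 ± 0.16 (SE) in wild type, -0.26 ± 0.16 in the labelled knockout and -0.40 ± 0.11 on average, with limma adjusted p-values of 1, 0.999 and 0.384.

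Ccl24 fell after irradiation in the labelled knockout. Its levels there were -4.30, -4.06, -4.11 and -4.26 in sham and -4.82, -5.35, -4.89 and -4.99 after irradiation. In wild type they were -4.09, -4.40, -4.21 and -4.31 in sham and -4.70, -4.37, -4.32 and -4.21 after irradiation. The 4 irradiated labelled-knockout arrays were the 4 lowest of all 16, and the other groups overlapped. The log2 change in the labelled knockout was -0.83 ± 0.13 (SE), 1.78-fold lower (limma adjusted p = 0.0233, lower in 4 of 4 mice). That direction was called for 0.0459% of all genes, and groups without overlap in it made up 1.03%. In wild type the change was -0.15 ± 0.13 (adjusted p = 1). The average over genotypes, which shares its arrays with both, was -0.49 ± 0.09 (adjusted p = 0.0461, beside 0.138% of all genes called lower). The difference between the genotypes in their response was -0.68 ± 0.19, with an unadjusted p of 0.00253 and a limma adjusted p of 1, so a different response was not shown. No gene was called for that difference (0 of 17436), while 222 genes (1.27%) had an unadjusted p under 0.05.

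The signals behind Ccl24 were low. The processed signal was 79.5 to 114 in labelled-knockout sham arrays and 31.3 to 62.6 in the irradiated ones, beside 96.8 to 160 in wild type, and all 16 spots were well above background. The dimmest probe that was well above background read 14.5 to 25.2 per array. The irradiated labelled-knockout arrays were also the dimmest as a group. When replicates 3 and 4 of the irradiated group, the 2 dimmest arrays, were left out, the change was -0.90 with an adjusted p of 0.171. With array brightness as a covariate it was -0.82 with an adjusted p of 0.183, and with normexp background correction it was -0.20 with an adjusted p of 0.527. It was called under 17 of 32 alternatives, and leaving out 1 array ended the call for labelled-knockout sham replicates 2, 3 and 4 (adjusted p = 0.117, 0.0926 and 0.0607) and irradiated replicates 2 and 4 (adjusted p = 0.0559 and 0.0749). The average was called under 6 of 31. The alternatives on dim arrays and on array brightness were chosen after the data were seen.

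**Figure D4:**
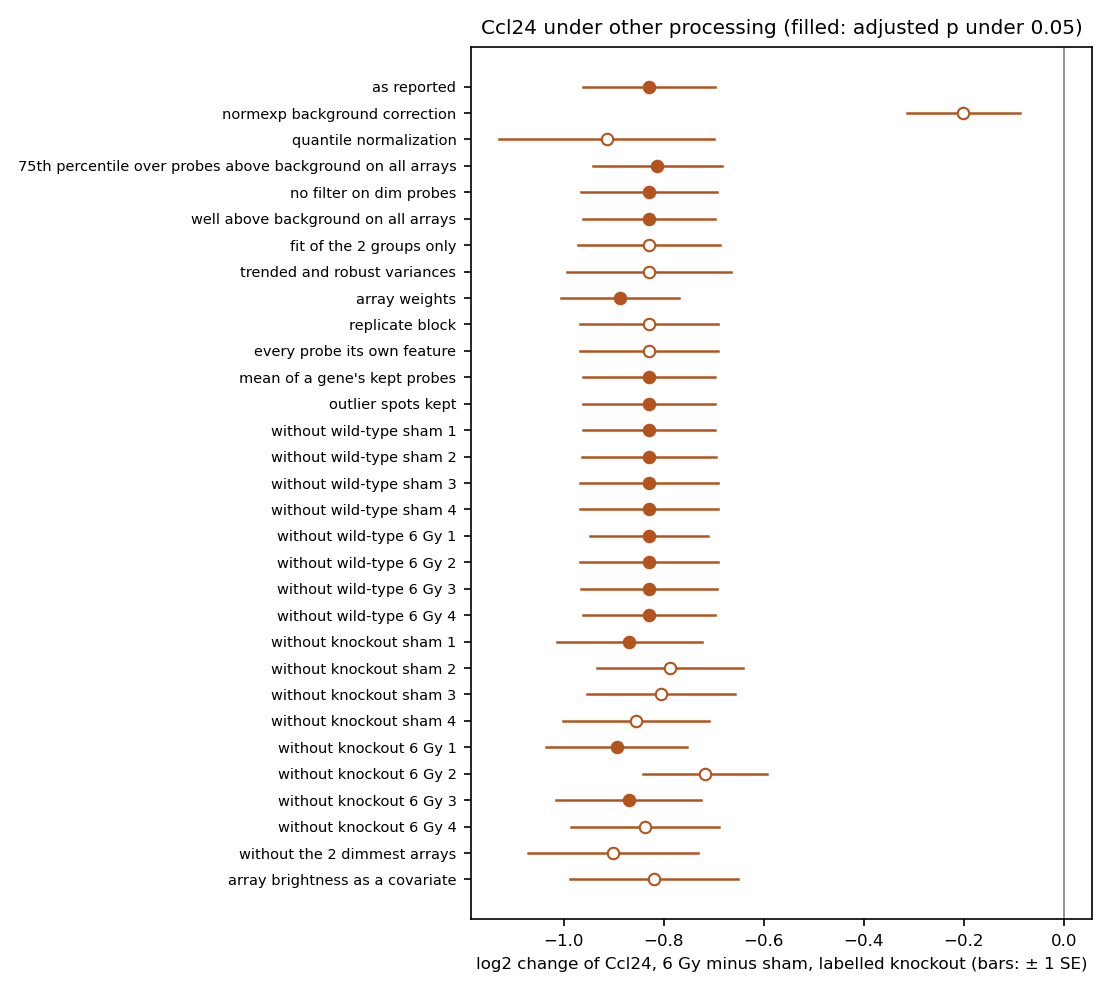
Log2 change of Ccl24 after irradiation in the labelled knockout (x axis, ± 1 SE) as reported and under 30 of the 32 alternatives, without the 2 on other scales. Filled points have an adjusted p under 0.05, and normexp background correction stands apart at -0.20.

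Cxcl12 and Cx3cl1 are made by resident cells, the first binding CXCR4 and ACKR3 and the second CX3CR1. Cxcl12 stood at 2.22, 2.11, 2.38 and 2.24 in wild-type sham and at 1.77, 2.14, 1.84 and 1.61 after irradiation. Labelled-knockout arrays gave 2.15, 1.93, 1.98 and 2.52 in sham and 2.53, 2.41, 1.12 and 2.46 after irradiation. The third irradiated labelled-knockout array lay far below all others. Log2 changes were -0.40 ± 0.26 (SE) in wild type and -0.02 ± 0.26 in the labelled knockout, with limma adjusted p-values of 1 and 0.999. The dimmer Cxcl12 probe gave 0.28 ± 0.31 and -0.11 ± 0.31, so the 2 probes pointed in opposite directions in wild type, neither beyond its error.

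Cx3cl1 varied least. It stood at 5.57, 5.53, 5.65 and 5.61 in wild-type sham and at 5.73, 5.64, 5.64 and 5.64 after irradiation. In the labelled knockout it stood at 5.90, 5.86, 6.00 and 5.76 in sham and at 5.91, 6.03, 5.90 and 5.91 after irradiation. Every labelled-knockout array was above every wild-type array. The log2 change after irradiation was 0.07 ± 0.08 (SE) in wild type and 0.05 ± 0.08 in the labelled knockout, with 95% intervals from -0.09 to 0.24 and from -0.11 to 0.22.

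The second question is whether genotype alone moved these genes. No member was called between labelled-knockout and wild-type sham arrays, beside 0.0516% of all genes. Cx3cl1 was the member whose sham groups did not overlap, as were 2.73% of all genes in the upward direction, with a log2 difference of 0.29 ± 0.08 (SE) and a limma adjusted p of 0.367. After irradiation it was 0.27 ± 0.08 higher, again without overlap (4.3% of all genes), with an adjusted p of 0.0913. The Cx3cl1 difference kept its sign under all 32 alternatives and was called under 1 of them in sham and 3 after irradiation. On the log2 scale it ran from 0.10 to 0.33 in sham and from 0.07 to 0.31 after irradiation. The summed level of 14 tested neuron markers ran from 228 to 277 in wild-type arrays and from 274 to 322 in labelled-knockout arrays. These ranges overlapped, and the part of this sum in the Cx3cl1 difference was not tested. Ccl24 was called lower in irradiated labelled knockout than in irradiated wild type, with a log2 difference of -0.61 ± 0.13 (SE, limma adjusted p = 0.0385). It was the 1 member called, beside 1.18% of all genes in either direction and 0.356% called lower. The number of genes behind the 1.18% was unstable: 205 genes became 17 without irradiated wild-type replicate 3, 30 to 37 without irradiated labelled-knockout replicate 2, 3 or 4, 0 with the brightness covariate, 470 without irradiated wild-type replicate 1 and 3378 with normexp. Groups without overlap in that direction made up 4.44% of all genes. This comparison uses the same irradiated arrays as the fall of Ccl24 in the labelled knockout, and slide and genotype cannot be told apart in it. The Ccl24 call held under 12 of 32 alternatives. It was lost in 12 of the 16 fits without 1 array, among them those without each irradiated labelled-knockout array (adjusted p = 0.0501, 0.0933, 0.0688 and 0.0918), and with normexp background correction the difference was 0.10. Differences of the other 9 members in sham ran from -0.90 for Cxcl10 to 0.29 for Cx3cl1.

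Receptors of these ligands gave no call. Of 23 listed chemokine receptors 14 were tested, and none was called in any of the 6 contrasts. The median log2 change of the 14 was -0.06 in wild type and -0.01 in the labelled knockout. Ccr2, the receptor of CCL2 and CCL12, was well above background on 3 of 16 arrays and Ccr3, the receptor of CCL24, on 2, so neither was tested, and Ccr1 was on 0. Cx3cr1 had a log2 change of -0.16 ± 0.13 and -0.22 ± 0.13, and Ackr3 of -0.03 ± 0.18 and -0.02 ± 0.18.

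Among 31 other listed chemokines 14 were tested and 1 was called, Ccl9, a myeloid chemokine whose gene lies next to that of Ccl6. It fell by 0.69 on the log2 scale in the average over genotypes (SE 0.13, limma adjusted p = 0.0302), with -0.68 ± 0.18 in wild type and -0.70 ± 0.18 in the labelled knockout. In that average 0.138% of all genes were called lower. Ccl9 stood at -2.64, -2.47, -2.87 and -2.92 in wild-type sham and at -3.17, -3.32, -3.39 and -3.73 after irradiation, and these groups did not overlap. Its labelled-knockout levels were -2.65, -2.37, -2.58 and -3.22 in sham and -3.46, -3.56, -3.15 and -3.46 after irradiation, overlapping by 1 array. Ccl7, a further CCR2 ligand, had a log2 change of 0.76 ± 0.33 in wild type and 0.14 ± 0.33 in the labelled knockout, neither called. Ccl11, Ccl20, Ccl22, Cxcl2, Cxcl9 and Cxcl13 were well above background on 0 arrays.

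Of 29 listed cytokines, interferon regulators and their receptors 26 were tested, and none was called in either irradiation contrast or their average. Tnfrsf1a, a receptor of tumour necrosis factor, had a log2 change of 0.35 ± 0.15 in wild type and 0.34 ± 0.15 in the labelled knockout (limma adjusted p = 1 and 0.999). Irf7, an interferon regulatory factor, had a log2 change of 0.40 ± 0.24 and 0.73 ± 0.24 (adjusted p = 1 and 0.769). Ifng and Ifnb1, which encode interferons, were well above background on 0 arrays. Of 9 tested proteases and binding partners of chemokines, 1 fell in the average over genotypes: Ctss, the protease cathepsin S and also a microglial marker, by 0.43 (SE 0.08, adjusted p = 0.0461). In that average 0.138% of all genes were called lower.

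Markers of the cells that make or receive these chemokines were set beside them. All 20 microglial markers were tested, and 1 fell in each genotype, P2ry12, a purine receptor of resting microglia, by 0.62 (SE 0.10) in wild type and 0.76 (SE 0.10) in the labelled knockout (limma adjusted p = 0.0357 and 0.00525). In the average over genotypes 3 of the 20 fell, P2ry12, Ctss and Tgfbr1, a receptor subunit for transforming growth factor beta (by 0.43, SE 0.08, adjusted p = 0.0461), and 8 had an unadjusted p under 0.05, all downward. Of all genes, 0.138% were called lower in that average and 2.53% had an unadjusted p under 0.05 downward. The shares called in either direction were 0.0746% in wild type and 0.12% in the labelled knockout. Over all genes 54.5% of estimates were above 0 in wild type and 49.8% in the labelled knockout. Across the list of microglial markers 18 of 20 estimates were below 0 in wild type and 16 of 20 in the labelled knockout. The medians of the 20 markers were -0.17 and -0.24. Their summed level ran from 88.5 to 103 in the wild-type sham group and from 80.9 to 89.1 after irradiation, and in the labelled knockout from 80.2 to 96.5 and from 77.8 to 90.4. The estimates of Ccl6 and Ccl9 had the sign of these medians and those of Ccl3 and Ccl4 had the opposite sign; the part of microglial RNA in either was not tested. Of 15 monocyte and neutrophil markers 13 were tested and none was called, with medians of 0.25 and 0.87. Their sum ran from 8.55 to 10.4, 8.52 to 11.4, 6.03 to 9.81 and 8.13 to 11.6 in the 4 groups in the same order, and its part in the higher levels of Ccl2, Ccl3, Ccl4 and Ccl12 was not tested. Of 16 lymphocyte markers 10 were tested, and 2 fell in the average over genotypes, Il7r by 0.98 (SE 0.13, adjusted p = 0.00217) and Cd79b by 0.74 (SE 0.11, adjusted p = 0.00409). The list as a whole did not fall there: 6 of the 10 estimates were above 0 and 4 below, with a median of 0.05. Over all genes 51.7% of estimates were above 0 in that average and 0.138% were called lower. The summed level of the 10 ran, in sham and irradiated arrays in that order, from 7.31 to 9.25 and from 8.04 to 9.74 in wild type and from 6.33 to 9.55 and from 7.76 to 10.4 in the labelled knockout.

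Beside Ccl24, 11 of 12 border-associated macrophage markers were tested and none was called in the irradiation contrasts. Their sum ran from 1.61 to 2.10 in labelled-knockout sham and from 1.40 to 2.11 after irradiation, and from 1.79 to 2.74 and 1.48 to 2.72 in wild type. The irradiated range thus covered the sham range in the labelled knockout. Of 10 markers of eosinophils, mast cells and basophils 3 were tested, and Epx and Prg2, which encode eosinophil granule proteins, were well above background on 2 and 0 arrays.

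For each member measured on all 16 arrays the most similar of 17370 genes was found by Pearson's r over the arrays, given as a description of points that share brightness and treatment. Cxcl10 was most like Ifit3 (r = 0.93), an interferon-induced gene, and next like its paralog Ifit3b (r = 0.93). Ifit3 was highest in the first irradiated labelled-knockout array, at 0.26, and next in the second irradiated wild-type array, at 0.17, the same order as Cxcl10. Its own log2 changes, 0.18 ± 0.19 (SE) in wild type and 0.32 ± 0.19 in the labelled knockout, were not called. Cxcl12 was most like Rgs5 (r = 0.95), a gene of pericytes. Rgs5 was lowest, at -0.46, in the third irradiated labelled-knockout array, where Cxcl12 was lowest too. That array also had the lowest summed level of 14 endothelial markers, 18.8, beside 22.3 to 32.1 in the others. Its summed level of 9 pericyte and smooth muscle markers, Rgs5 among them, was 21.6, second to 22.8 in the highest array, and its sum of 11 meningeal fibroblast markers, 91.4, was the highest. The part of any of these in the low Cxcl12 value was not tested.

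**Figure D5:**
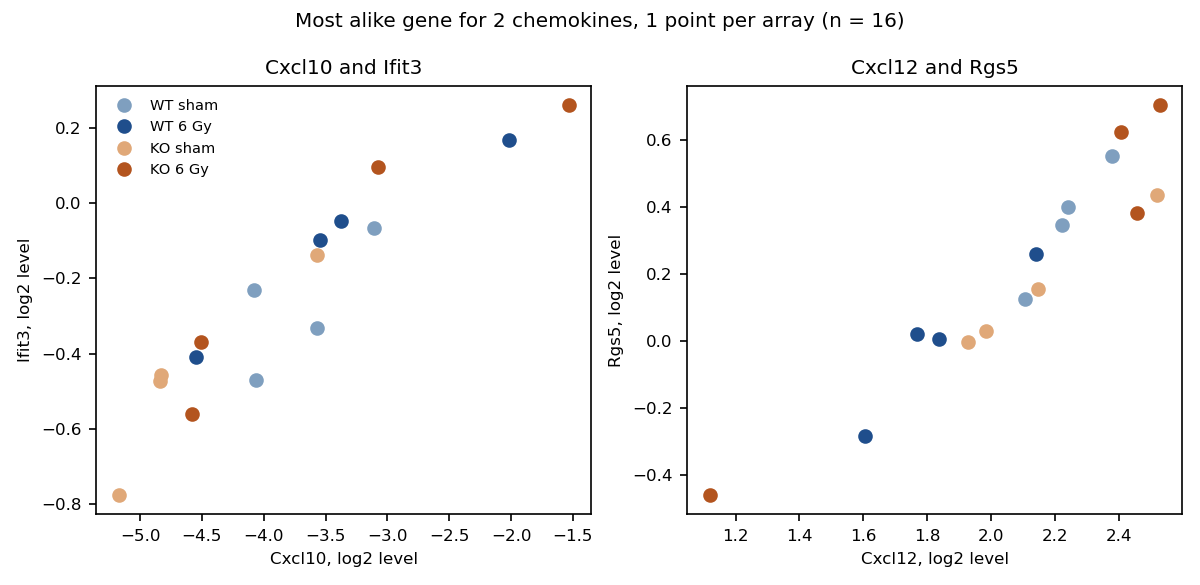
Log2 level of Ifit3 against Cxcl10 (left) and of Rgs5 against Cxcl12 (right), 1 point per array, coloured by group. Both pairs rise together over the 16 arrays (r = 0.93 and 0.95), and the array lowest for Cxcl12, at 1.12, is also lowest for Rgs5, at -0.46.

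Ccl6 was most like Ccl9 (r = 0.83), and Ccl12 was most like Rhod (r = 0.84). Ccl3 was most like 9030619P08Rik (r = 0.88), Ly6a (r = 0.87) and Phlda3 (r = 0.86), of which Phlda3 is a known target of p53. Phlda3 had a log2 change of 0.58 ± 0.20 (SE) in wild type and 0.76 ± 0.20 in the labelled knockout, with a limma adjusted p of 0.0843 for the average. Ccl2 was most like Tubb6 (r = 0.79), Ccl24 like 4931440J10Rik (r = 0.87) and Cx3cl1 like Zfp523 (r = 0.94). Ccl4 was left out, since 2 of its arrays were not well above background.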

How the data were processed

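Cy3-labelled cRNA from 16 cortex samples was hybridised to 1-colour Agilent arrays. Per the file headers, the authors scanned at 3 micron and extracted spots with Agilent Feature Extraction 12.0.3.1. The intensity used is the deposited processed signal, from which each array's background and spatial trend had been taken and which was not scaled between arrays. The deposited scores of 42859 features, made by steps not given in the sources used here, served as an alternative; their columns had a median of -0.08 and shared 1 distribution. Control spots and outlier flags were left out. Probes were kept when well above background on at least 4 of 16 arrays (39589 of 56605), genes when they had at least 12 values; 32994 of 35886 RefSeq probes were named through GRCm38.p6. The number of arrays limits the precision.

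The 6 contrasts came from limma 3.58.1 under R 4.3.3 with 12 residual degrees of freedom, after recovery of known changes was tested on simulated data. The members and gene lists were chosen with earlier results of these data known. The naming rule took the members, Neil1, main receptors, the 3 genes most like each member and up to 4 genes of each list with the smallest p; not all are named. Undetected genes were named after their values were seen. Normexp used the median signal, since the mean signal was not a column. Some results on listed genes are not reported here.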

Additional observations from a re-analysis of the deposited data

Results flagged for a closer look

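In each of 40 sets of 4 arrays (10 genes, 4 groups) the highest and lowest array were compared with the rest by Dixon's criterion, which chance exceeds in about 1 of 20 sets; 4 sets exceeded it. Ccl12 was far above the other 3 wild-type sham arrays in replicate 2, at -3.44. Cxcl12 was far below the other 3 irradiated labelled-knockout arrays in replicate 3, at 1.12. Cx3cl1 was above the rest in irradiated wild-type replicate 1, at 5.73, and in irradiated labelled-knockout replicate 2, at 6.03.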

How the results depend on the processing

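Each contrast was recomputed under 32 alternatives, 16 of them leaving out 1 array. No member was called for irradiation in wild type or for the interaction under any of them. The count of members called was 1 for irradiation in the labelled knockout, for the average and for genotype after irradiation, and 0 for genotype in sham. For irradiation in the labelled knockout it became 0 with normexp, quantile normalization, z-scores, a fit of 2 groups, trended and robust variances, every probe as a feature, the deposited scores, without the 2 dimmest arrays or with array brightness as a covariate, and ran from 0 to 1 when 1 array was left out. For the average it became 3 with normexp (Ccl12, Ccl3 and Ccl4 higher), 3 with array weights (Ccl12 and Ccl4 higher, Ccl24 lower), 2 with the mean of a gene's probes (Ccl4 higher, Ccl24 lower), and 0 with quantile normalization, z-scores, no filter, trended and robust variances, every probe, the deposited scores or without the 2 dimmest arrays, and ran from 0 to 1 when 1 array was left out, with 1 only without irradiated labelled-knockout replicate 1. With the brightness covariate the 1 called member was Ccl12, higher. The number of all genes called for the average under these alternatives is not given here, so these member counts have no share beside them. For genotype after irradiation it became 2 with normexp (Ccl4 and Cx3cl1 higher), 2 with the percentile over probes detected on all arrays and 2 with z-scores (Ccl24 lower and Cx3cl1 higher in both), 0 with quantile normalization, a fit of 2 groups, trended and robust variances, the scores, without the dimmest arrays or with the covariate, and 0 to 1 when 1 array was left out. For genotype in sham it became 1 with array weights (Cx3cl1 higher). The Ccl24 difference between irradiated genotypes turned to 0.10 (adjusted p = 0.615) with normexp, its only turn among called values; the cause was not tested. The replicate number was also the slide column of each array. With group means removed, same-numbered arrays correlated from -0.60 to 0.52 in 24 pairs, 11 over 0.1, and 7 correlated best with their own number. Between sham and irradiated arrays of 1 slide, r was 0.52, 0.05, 0.27 and 0.37 in the labelled knockout. In wild type it was 0.20, -0.60, -0.10 and 0.06. These values do not settle whether the numbers pair the arrays. With the replicate block the counts for the labelled knockout, the average and genotype after irradiation became 0, 0 and 0, with limma adjusted p-values for Ccl24 of 0.0804, 0.0995 and 0.0526. Of 1894 member values under the alternatives 96 changed sign, 27 of them of Ccl5. Signals near background limit the dim members, and Ccl4 had 2 arrays not well above it. Slide and genotype, and slide row and treatment, cannot be told apart. The sources used here give no litters or cages for the mice, so p-values measure the spread between these 16 samples.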
